A study of Mus musculus with 20 samples.

Results

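Striatal projection neuron genes are described here through 7 transcripts of the medium spiny neurons that fill the striatum, chosen by name: Ppp1r1b, Pde10a, Rgs9, Adora2a, Penk, Tac1 and Pdyn. All 7 were found among the 19463 genes of the table, by matching Ensembl identifiers to mouse symbols, and all 7 passed the filter on low values in every comparison. RNA came from whole brains of male C57BL/6J mice, either Katnal2 knock-out (KO) or wild type (WT), at 3 weeks (P21) or 10 weeks (P70). There were 5 mice in each of the P21 KO, P21 WT, P70 KO and P70 WT groups, which makes 20 mice. The KO allele came from the EUCOMM line Katnal2tm1a(EUCOMM)Wtsi. Flp recombination in the germ line was followed by treatment of early embryos with HTNC, a Cre protein that enters cells. The deletion removes exon 3 in every cell of the homozygous mice, and the line had been crossed to C57BL/6J for over 5 generations. Littermates of mixed genotype and the same sex shared cages. The study asked whether loss of Katnal2, which encodes a relative of the microtubule-severing katanin p60 subunit, changes brain transcripts as mice grow up.

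Medium spiny neurons are the GABAergic output neurons of the striatum, and they read dopamine from the midbrain and glutamate from cortex and thalamus. Direct pathway neurons carry the D1 dopamine receptor and make dynorphin and substance P. Indirect pathway neurons carry the D2 dopamine receptor and an adenosine receptor and make enkephalin. Both kinds carry DARPP-32, which protein kinase A turns into an inhibitor of protein phosphatase 1, together with the cyclic nucleotide phosphodiesterase PDE10A and RGS9, which shortens G protein signals. Several of these genes are also used elsewhere, Penk and Pdyn in cortex, hippocampus and hypothalamus for example, so a whole-brain value is not a striatal value alone. In such RNA, fewer cells of a type and less RNA per cell cannot be told apart.

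The part of each precursor transcript that encodes the active peptide shows what the peptide genes make. In Penk on chromosome 4, minus strand, exon 2 of the longest coding transcript holds 6 Met-enkephalin stretches and 1 Leu-enkephalin stretch, each 15 bases long and printed 5′ to 3′ with the last codon in capitals, since that codon sets Met or Leu.
Penk Met-enkephalin copy 1, chr4:4134334-4134348: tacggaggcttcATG
Penk Met-enkephalin copy 2, chr4:4134313-4134327: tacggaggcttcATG
Penk Met-enkephalin copy 3, chr4:4134226-4134240: tatggcggcttcATG
Penk Met-enkephalin copy 4, chr4:4134073-4134087: tatgggggcttcATG
Penk Met-enkephalin copy 5, chr4:4134001-4134015: tacgggggcttcATG
Penk Met-enkephalin copy 6, chr4:4133848-4133862: tacgggggctttATG
Penk Leu-enkephalin, chr4:4133941-4133955: tatgggggcttcCTG

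The 6 Met-enkephalin stretches use 5 different base sequences. In Pdyn on chromosome 2, minus strand, exon 4 has 3 Leu-enkephalin stretches, each the start of a longer opioid peptide, and 0 Met-enkephalin stretches.
Pdyn Leu-enkephalin copy 1, chr2:129688238-129688252: tatggcggctttTTG
Pdyn Leu-enkephalin copy 2, chr2:129688130-129688144: tatgggggcttcCTG
Pdyn Leu-enkephalin copy 3, chr2:129688073-129688087: tatggtggtttcCTG

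Tac1 on the plus strand of chromosome 6 encodes substance P in exon 3 and neurokinin A in exon 6, where the capitals mark the codons of the closing 5 residues that define tachykinins. Ppp1r1b on the plus strand of chromosome 11 encodes the protein kinase A site of DARPP-32 in exon 2, where capitals mark the codon of threonine 34.
Tac1 substance P, chr6:7556732-7556764: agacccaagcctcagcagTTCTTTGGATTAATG
Tac1 neurokinin A, chr6:7559101-7559130: cataaaacagattccTTTGTTGGACTAATG
Ppp1r1b, chr11:98350578-98350595: cggagaccaACCcctgcc

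These positions are in GRCm38 and were read from the GENCODE M21 transcripts. Promoter windows of 250 bases before a start site (RefSeq, GRCm38.p6) could be matched for 4 of the 7 genes, Pdyn, Tac1, Rgs9 and Pde10a, as 6 windows. They were searched on both strands for the cAMP response element core TGACG, whose other strand reads CGTCA, and for TATAAA. The core was in 17.8% of all 32851 windows of that length and TATAAA in 12.4%. The Tac1 window held 2 cores, shown in capitals, and none of the other 5 windows held one. In GENCODE M21 the Tac1 gene starts at 7554879, inside this window. Most of the window, with the second core, thus lies within the gene as annotated there. The Rgs9 window held 1 TATAAA. The Pdyn window before its upstream start is printed as well, because Pdyn was the one gene of the 7 to pass the test in a comparison below. These are matches of letters only.
Tac1 promoter, chr6:7554811-7555060: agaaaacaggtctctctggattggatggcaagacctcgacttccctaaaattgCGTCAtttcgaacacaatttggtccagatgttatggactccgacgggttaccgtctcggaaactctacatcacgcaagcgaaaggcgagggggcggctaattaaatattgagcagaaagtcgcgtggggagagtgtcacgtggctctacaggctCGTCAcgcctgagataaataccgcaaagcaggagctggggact
Pdyn promoter, chr2:129699939-129700188: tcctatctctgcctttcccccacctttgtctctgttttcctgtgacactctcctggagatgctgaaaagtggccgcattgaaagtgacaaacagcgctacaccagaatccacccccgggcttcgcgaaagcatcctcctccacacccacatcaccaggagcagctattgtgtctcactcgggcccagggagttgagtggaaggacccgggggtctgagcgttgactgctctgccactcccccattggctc

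The deposited values were normalized counts, so they do not show sequencing depth, and the sums per mouse lay between 27310523 and 28423042. Katnal2 itself, the labels' check, lay at 78.1 to 96.0 in the P21 KO mice and 99.3 to 115 in the P21 WT mice, with no overlap. At P70 it lay at 95.1 to 125 in KO and 101 to 141 in WT mice, and the groups overlapped. KO minus WT, Katnal2 differed by -0.27 (SE 0.10, unadjusted p = 0.0207, limma) at P21 and -0.21 (SE 0.13, unadjusted p = 0.13, limma) at P70. It passed by adjusted p at neither age, so this is a weak check of the labels. The values are per gene and do not show exon 3 by itself. Among 31 further spiny neuron genes written as markers, 20 shared by both pathways, 6 direct and 5 indirect, each was above 0 in all 20 mice. Both replicate 5 mice of P70 stood apart from the others: their median correlation with mice of the same age was 0.967 (KO) and 0.974 (WT), against 0.983 to 0.99 in the other 18. In the KO mouse of this pair, the 10% longest transcripts had a median log2 deviation of -0.45 from the other P70 mice and the 10% shortest had 0.33, and in the WT mouse these were -0.29 and 0.28. Differences of Ppp1r1b and Pde10a, which these mice moved most among the 7 genes, are given with and without them.

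Divided by transcript length, Penk and Ppp1r1b were the highest of the 7 genes. On a scale that sums to 1000000 over all genes with a length in each mouse, the level of Penk was 299 ± 41.8 (SD, n = 20 mice) and that of Ppp1r1b 298 ± 52.4, ranks 444 and 450 of 19447 genes, and they did not differ beyond their spread. Pde10a (76.2 ± 14.6) and Tac1 (69.2 ± 4.92) overlapped with each other. Tac1 stood clear of Rgs9 (47.5 ± 6.22), since its lowest mouse had 61.1 and the highest of Rgs9 was 60.2. Rgs9 overlapped with Adora2a (33.6 ± 4.26), and Adora2a with Pdyn (26.1 ± 2.92). The dopamine receptors were at the lower end of this scale, Drd2 at 26.1 ± 4.54 and Drd1 at 18.9 ± 2.2. With the mean length of each gene's coding transcripts in place of the longest one, the level of Pde10a became 131.5 and that of Adora2a 62.0, which moved Adora2a above Rgs9 (49.0).

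**Figure D1:**
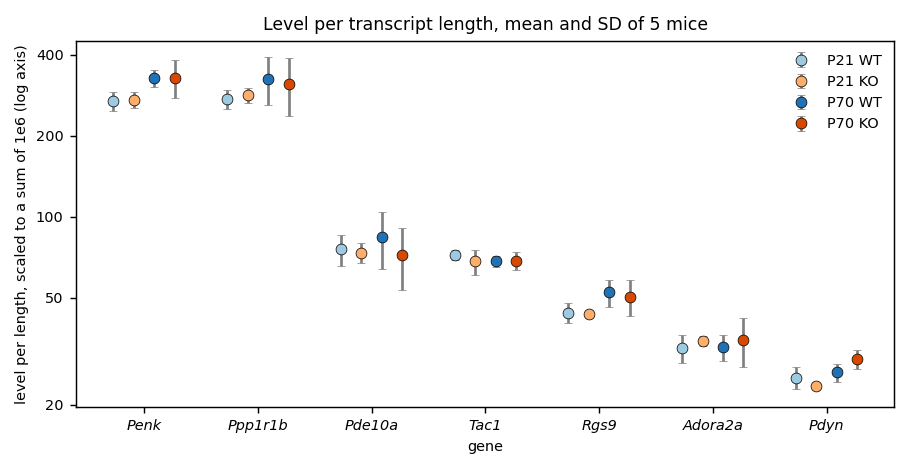
Level per transcript length on a log axis, on a scale that sums to 1000000 in each mouse, for the 7 genes in the 4 groups. Points are means of 5 mice and bars are SDs. Group means of Penk and Ppp1r1b lie between 269 and 329, and no mouse exceeds 102.9 for any of the other 5 genes.

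The first question was whether the KO mice differed from WT mice at either age. None of the 7 genes did: 0 passed an adjusted p of 0.05 at P21 or at P70 in limma's moderated test, where 0% of 17610 genes at P21 and 0% of 17613 genes at P70 passed. At an unadjusted p of 0.05, 0 of the 7 passed at P21, against 2.44% of all genes, and 0 at P70, against 1.13%. The KO and WT ranges overlapped for all 7 genes at both ages, while groups without overlap were seen for 0.46% of genes at P21 and 0.193% at P70.

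At P21 the intervals were narrow. DARPP-32 transcript (Ppp1r1b) had values of 5729, 5469, 6207, 4763 and 5879 in the WT mice of replicates 1 to 5, and 5655, 6210, 6422, 5249 and 5560 in the KO mice. The WT mice spanned a wider range that took in all but 2 of the KO mice. The log2 difference, KO minus WT, was 0.05 (95% interval -0.10 to 0.21). For the 7 genes at P21 the differences lay between -0.10 (Pdyn) and 0.10 (Adora2a), and the lowest and highest bounds of any interval were -0.26 (Tac1) and 0.26 (Adora2a), so a KO effect beyond these bounds was outside the 95% intervals at this age.

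At P70 the intervals were wider. The differences ran from -0.22 for Pde10a (SE 0.20, interval -0.65 to 0.22) to 0.18 for Pdyn (SE 0.10, interval -0.04 to 0.39, unadjusted p = 0.095, adjusted p = 1, limma). The Pde10a difference was -0.05 without P70 KO replicate 5, -0.36 without P70 WT replicate 5 and -0.19 without both, and that of Ppp1r1b, -0.06 over all 10 mice, was -0.21, 0.07 and -0.07. Pdyn was thus the gene nearest to the threshold at both ages, lower in KO at P21 (-0.10, SE 0.07) and higher in KO at P70. The difference between these 2 genotype effects, tested as an interaction over 20 mice, was 0.28 (SE 0.12, unadjusted p = 0.0331, adjusted p = 1, limma). By adjusted p, 0 of the 7 genes and 0% of 17637 genes passed the interaction, and by unadjusted p 1 of the 7 against 1.68% of all genes.

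The values of Pdyn, the dynorphin precursor, show how this came about. In WT mice of P21 they were 658, 517, 625, 645 and 644, and in KO mice of P21 they were 536, 583, 616, 580 and 562. WT replicate 2 lay below every KO mouse at that age, and the other 4 WT mice lay above them all. In WT mice of P70 the values were 693, 613, 559, 591 and 745, and in KO mice of P70 they were 664, 682, 783, 696 and 783. There the KO mice were higher in 20 of 25 pairs of a KO and a WT mouse.

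**Figure D2:**
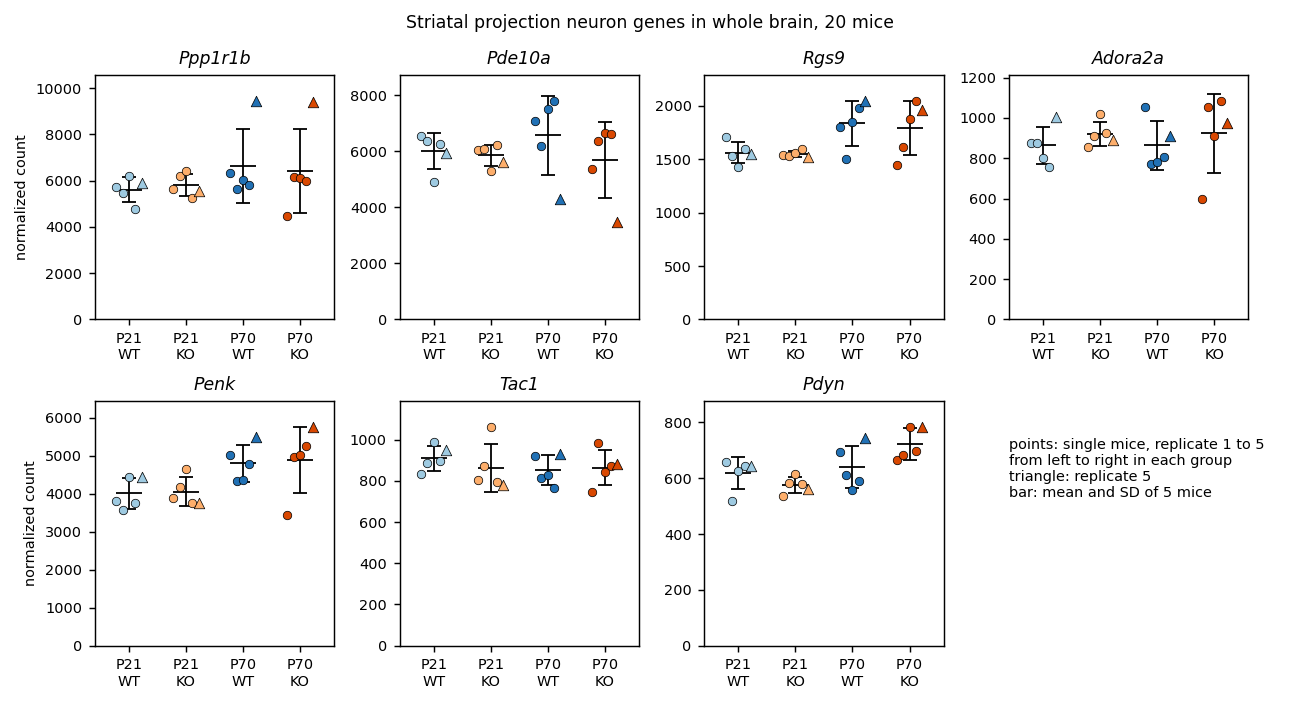
Normalized counts of the 7 genes in single mice, with the vertical axes starting at 0. Circles are replicates 1 to 4, triangles are replicate 5, and bars show mean and SD of 5 mice. KO and WT points overlap in every panel at both ages, and the P70 triangles are the highest of their groups for Ppp1r1b and the lowest for Pde10a.

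No related gene passed between genotypes. Of 20 other genes shared by both pathways, 0 passed at either age, with a median log2 difference of -0.004 at P21 and -0.04 at P70, beside 0.004 and -0.005 over all genes. The 2 with the smallest p were Scn4b, a sodium channel subunit (0.15, SE 0.07), and Meis2, a homeodomain factor (-0.11, SE 0.05), at P21, and Actn2 (-0.22, SE 0.11) and Ido1 (-0.38, SE 0.20) at P70, all with an adjusted p of 1 (limma). Of 6 direct and 5 indirect pathway genes, 0 passed. Lower in KO at P21 were 11 of the 20 shared, 2 of the 6 direct and 4 of the 5 indirect genes. At P70 lower values were seen for 15 shared, 4 direct and 4 indirect genes. The median difference was 0.02 at P21 and -0.02 at P70 for the direct genes, and -0.03 and -0.12 for the indirect genes. The D1 receptor gene Drd1 differed by -0.08 (SE 0.11) at P70, and the D2 receptor gene Drd2 by 0.08 (SE 0.06) at P21 and -0.15 (SE 0.17) at P70. Sp9, a factor of indirect pathway neurons, had an unadjusted p of 0.0138 at P21 (-0.31, SE 0.11, adjusted p = 1, limma). Of 16 signalling genes around DARPP-32, 9 genes that process neuropeptides and 5 receptors of these peptides, 0 passed at either age. Some marker lists of other cells moved together between genotypes, without a gene passing by adjusted p. Of the genes tested at P21, 7 of 7 hindbrain (median 0.82), 7 of 7 choroid plexus (0.30), 8 of 8 oligodendrocyte (0.11) and 6 of 6 hypothalamic genes (0.06) were higher in KO. At P70, 7 of 7 choroid plexus (0.34) and 6 of 6 microglia genes (0.05) were higher. There, 8 of 8 oligodendrocyte (-0.10) and 6 of 6 thalamic genes (-0.07) were lower. Their part in the values of the 7 genes was not tested.

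The second question was how the 7 genes changed from P21 to P70. In KO mice 1 of the 7 passed, Pdyn, which rose 1.25-fold (log2 difference 0.32, SE 0.08, 95% interval 0.16 to 0.49, adjusted p = 0.0197, limma). Over all genes in KO mice, 3.78% of 17641 passed in that direction and 4.53% were lower. All 5 P70 KO mice lay above all 5 P21 KO mice for Pdyn, which held for 5.4% of genes and for 1 of the 7. In WT mice 0 of the 7 passed, where 4.62% of 17630 genes were higher at P70 and 4.7% lower, and 0 of the 7 had P70 mice all above the P21 mice (5.2% of genes). The Pdyn difference in WT mice was 0.05 (SE 0.10, adjusted p = 0.809, limma), and the interaction above is the test of the gap between the genotypes, which did not pass. The Pdyn call in KO mice was lost without P21 KO replicate 1 (adjusted p = 0.0627), without P21 KO replicate 5 (0.0505) and without P70 KO replicate 3 (0.0575), with log2 differences of 0.29 to 0.35 over all 10 such limma fits.

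Penk, the enkephalin precursor, was higher at P70 in both genotypes without passing. WT mice had 3824, 3568, 4456, 3765 and 4445 at P21, and 5033, 4330, 4376, 4797 and 5509 at P70. KO mice had 3892, 4181, 4661, 3751 and 3766 at P21, and 3435, 4971, 5035, 5259 and 5759 at P70. A single P70 mouse, KO replicate 1, was below all 5 P21 KO mice, and the other 4 were above them all. The log2 difference was 0.26 in WT (SE 0.09, unadjusted p = 0.00942, adjusted p = 0.0768, limma) and 0.26 in KO mice (SE 0.12, adjusted p = 0.242). Without P70 KO replicate 1 it was 0.38 in KO mice, with an adjusted p of 0.0191 (limma). In WT mice it was 0.25 without replicate 5 of both ages, with an adjusted p of 0.0445, and 0.21 without P70 WT replicate 5 alone, with an adjusted p of 0.0728 (limma).

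Rgs9, whose product speeds the shut-off of G protein signals, had 1705, 1527, 1431, 1593 and 1546 in WT mice of P21, and 1804, 1507, 1853, 1976 and 2046 in WT mice of P70. All but replicate 2 of the P70 mice lay above every P21 mouse. The log2 difference was 0.23 (SE 0.09, unadjusted p = 0.0182, adjusted p = 0.114, limma), and without P70 WT replicate 2 it was 0.30 with an adjusted p of 0.0336. In KO mice the difference was 0.20 (SE 0.09, adjusted p = 0.23), over values of 1518 to 1599 at P21 and 1444 to 2048 at P70. At an unadjusted p of 0.05, 2 of the 7 genes were higher in WT (12.6% of all genes), Penk and Rgs9, and 1 in KO mice (11.1%), Pdyn.

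The substance P precursor Tac1 and the adenosine receptor gene Adora2a had differences closer to 0. Tac1 differed by -0.10 (95% interval -0.27 to 0.07) in WT and 0.01 (-0.21 to 0.22) in KO mice, with group means of 852 to 910. Adora2a differed by -0.003 (-0.22 to 0.22) in WT and -0.02 (-0.33 to 0.29) in KO mice, with group means of 863 to 925. Intervals of this width do not show that the levels were equal.

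The age differences of Ppp1r1b and Pde10a moved with the replicate 5 mice of P70. That of Ppp1r1b in WT mice was 0.22 (SE 0.13, adjusted p = 0.311, limma), and 0.09 without P70 WT replicate 5 (SE 0.07, adjusted p = 0.43). In KO mice it was 0.11 (SE 0.15), and -0.04 without P70 KO replicate 5 (SE 0.09). Pde10a differed by 0.11 in WT mice (SE 0.14, adjusted p = 0.692, limma) and by 0.25 without that WT mouse (SE 0.09, adjusted p = 0.0638). In KO mice its difference was -0.08 (SE 0.16), and 0.09 without that KO mouse (SE 0.07). None of these values passed.

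**Figure D3:**
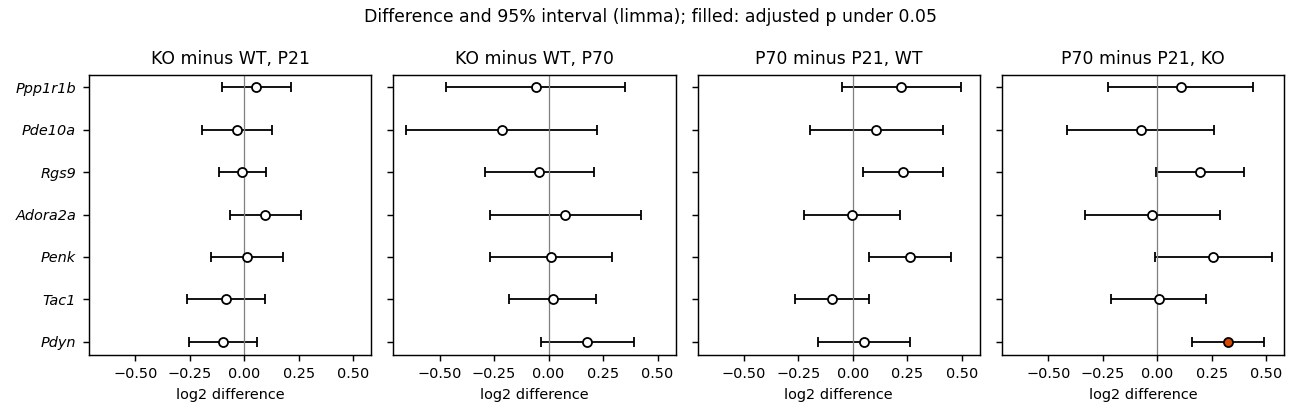
Log2 differences with 95% intervals from limma for the 7 genes in the comparisons of genotype at each age and of age in each genotype. A filled point marks an adjusted p under 0.05, which is Pdyn in KO mice (0.32). Intervals are wider at P70 than at P21 for the genotype comparisons.

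Among the further genes, several that both pathways share rose with age. In WT mice 5 of 20 shared genes passed as higher, beside 4.62% of all genes, and 0 as lower: Ptpn5, the striatal-enriched tyrosine phosphatase (0.43, SE 0.07, adjusted p = 0.00163), Scn4b (0.36, SE 0.08), Rasd2 (0.37, SE 0.09), Hpca (0.32, SE 0.08) and Bcl11b, the transcription factor CTIP2 (0.39, SE 0.10), by limma. Rasd2 and Bcl11b were named after their values were seen. In KO mice 1 of 20 passed, beside 3.78% of all genes: Ptpn5 (0.44, SE 0.08, adjusted p = 0.00378, limma), and the next was Hpca (0.28, SE 0.08, adjusted p = 0.0631). At an unadjusted p of 0.05, 6 of the 20 were higher in WT (12.6% of all genes) and 7 in KO mice (11.1%), and 0 of the 20 passed the interaction of age and genotype at an adjusted or unadjusted p. The median difference of the 20 genes was 0.11 in WT and 0.09 in KO mice, beside 0.001 and -0.01 over all genes. Of 6 direct pathway genes 0 passed in either genotype, with Chrm4, the M4 muscarinic receptor, at 0.28 (SE 0.09, adjusted p = 0.0753, limma) in WT mice and Drd1 at 0.04 (SE 0.11).

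Of 5 indirect pathway genes, Drd2 passed in WT mice. Its values there were 608, 568, 587, 563 and 643 at P21, and 809, 665, 716, 764 and 982 at P70, with all P70 mice above all P21 mice. The log2 difference was 0.40 (SE 0.10, adjusted p = 0.0241, limma). In KO mice it was 0.17 (SE 0.15, adjusted p = 0.568), and P70 KO replicate 1 had 467, below every P21 KO mouse. Of the 16 signalling genes, 1 passed in WT mice, Ppp3ca, the calcineurin catalytic subunit (0.26, SE 0.07, adjusted p = 0.0285, limma), and 0 in KO mice, where 15 were tested and Ppp3ca had 0.24 (SE 0.07, adjusted p = 0.0569). Of 9 peptide-processing genes, Cpe, carboxypeptidase E, fell by 0.28 on the log2 scale in WT mice (SE 0.06, adjusted p = 0.0133, limma), and 0 passed in KO mice. Of 5 peptide receptor genes, 0 passed in either genotype, and the kappa opioid receptor gene Oprk1, whose product binds dynorphin, had the smallest p in both, at -0.29 (SE 0.12) in WT and -0.43 (SE 0.20) in KO mice.

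Markers of other cells moved with age in the same mice. The summed values of 8 oligodendrocyte genes were 393381 to 577540 in P21 mice and 150486 to 198900 in P70 mice, and 7 of the 8 were lower at P70 in WT and 8 of 8 in KO mice by adjusted p (limma). Of 5 tested dopamine neuron genes, 1 was lower in WT and 2 in KO mice, of 6 thalamic genes 2 and 3, and of 8 cerebellar genes 1 and 3. Of 8 cortical genes, 1 was higher and 1 lower in WT, and 2 were higher in KO mice. Of hindbrain genes, 0 of 5 tested passed in WT mice, with a median difference of -0.18, and 1 of 7 was lower in KO mice, with a median of -1.10. Of 7 choroid plexus genes, 2 were higher in WT and 0 in KO mice, with medians of 0.47 and 0.30, and of 6 hypothalamic genes 1 and 0 were higher. Of 7 striatal interneuron genes, 1 was lower in KO mice, and no astrocyte or microglia gene passed (6 of each tested). The part of these shifts in the age differences of the 7 genes was not tested.

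The third question was whether the 7 genes rose and fell together from mouse to mouse. Group means were removed, and the deviations of log2 values were correlated over 20 mice for 21 pairs, with 100000 reorderings within groups and adjustment over the 21 pairs. Of these, 16 pairs were positive and 7 passed an adjusted p of 0.05. Ppp1r1b and Penk were the closest pair (Pearson r = 0.814, Spearman rho = 0.785, p = 0.00013 and adjusted p = 0.00273 for r, rho adjusted p = 0.00315, permutation test), with r of 0.785 within P21 and 0.839 within P70, over 10 mice each. Penk and Tac1 came next by adjusted p, though not by r (r = 0.73, rho = 0.762, adjusted p = 0.00861 and 0.00703, permutation test), with r of 0.857 within P21 and 0.693 within P70. Adora2a went with Penk (r = 0.775, rho = 0.63, adjusted p = 0.0286 and 0.0335, permutation test) and with Tac1 (r = 0.636, rho = 0.597, adjusted p = 0.0138 and 0.0335). Pdyn went with Penk (r = 0.624, rho = 0.707, adjusted p = 0.0133 and 0.0095, permutation test). Leaving out the 2 mice farthest from the median of the first gene gave r of 0.844 for Ppp1r1b and Penk, 0.743 for Penk and Tac1, 0.604 for Adora2a and Penk, 0.53 for Adora2a and Tac1, and 0.625 for Penk and Pdyn.

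The other 2 pairs to pass were Ppp1r1b with Tac1 (r = 0.549, rho = 0.69, adjusted p = 0.0481 and 0.0095, permutation test; 0.655 without the 2 mice) and with Pdyn (r = 0.587, rho = 0.552, adjusted p = 0.0393 and 0.0506; 0.377 without the 2 mice, and 0.204 within P21). The relation of Ppp1r1b with Pdyn thus rested on the 2 mice left out, which were the replicate 5 mice of P70.

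Pde10a and Rgs9 passed with none of the other genes over 20 mice. Rgs9 had r of 0.577 with Penk, 0.535 with Adora2a, 0.528 with Ppp1r1b, 0.396 with Pdyn and 0.1 with Tac1. Within P21 these were -0.361, 0.159, -0.355, 0.351 and -0.369, in that order. The r of Pde10a with Ppp1r1b was -0.734 over 20 mice (rho = -0.426, adjusted p = 0.0656 and 0.151, permutation test), with -0.583 within P21 and -0.755 within P70. Without the P70 replicate 5 mice it was 0.0786 where group means were taken over the remaining mice, and -0.197 where the means of all 5 were kept. Without P70 KO replicate 1 it was -0.882 (adjusted p = 0.0201, permutation test), and without all 3 mice -0.397 (adjusted p = 0.374). Without the P70 replicate 5 mice Pde10a went with Rgs9 (r = 0.78, rho = 0.798, adjusted p = 0.00336 for r, permutation test), whereas over 20 mice that pair had r of -0.0471. Within P21 the pair had r of 0.746 over 10 mice. P21 WT replicate 3 and P21 KO replicate 3 deviated from the other P21 mice with transcript length, at rank correlations of -0.418 and -0.338. They were at 0.784 and 0.886 times the mean of their group mates for Pde10a, and at 1.14 and 1.2 times for Penk. The part of this trend in the r values within P21 was not tested.

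The values of single mice show how far the replicate 5 mice of P70 stood from the others. In WT mice of P70, Ppp1r1b had 6314, 5622, 6029, 5795 and 9457, and Pde10a had 7067, 6201, 7500, 7806 and 4303. In KO mice of P70, Ppp1r1b had 4469, 6146, 6135, 6001 and 9423, and Pde10a had 5378, 6362, 6661, 6620 and 3468. The replicate 5 mice were far above the other mice for Ppp1r1b, at 1.59 times (WT) and 1.66 times (KO) the mean of the other 4, and far below for Pde10a, at 0.602 and 0.554 times. Drd2, at 982 and 975, was also highest of its group in these mice, while Drd1, at 619 and 578, was lowest. Their mean log2 deviation from the P70 mice was -0.23 (WT) and -0.282 (KO) over the indirect pathway genes. Over the direct pathway genes it was -0.0768 and -0.188, and over the shared genes 0.0447 and -0.0512. The 5 remaining genes of the 7 were at 1.02 to 1.23 times the mean of the other 4 in both mice.

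Ppp1r1b lies toward the high end of the range of GC content, and Pde10a toward the long end of the range of transcript length. The longest coding transcript of Pde10a has 7769 bases, longer than 94.3% of the genes, and that of Ppp1r1b has a GC content of 61.0%, above 96.8% of the genes. Over 17623 genes, the deviation of P70 KO replicate 5 from the other P70 mice had a rank correlation of -0.413 with length and 0.632 with GC content, and that of P70 WT replicate 5 had -0.391 and 0.596. In the other 8 P70 mice these were 0.0363 to 0.313 and -0.415 to -0.239. Adora2a has a GC content of 59.2%, above 93.0% of the genes, and was at 1.07 times the other mice in both. With a smooth trend in length and GC subtracted from each mouse, the SE of the age difference of Ppp1r1b in WT mice went from 0.13 to 0.06. Its adjusted p went from 0.311 to 0.0199 (limma), so Ppp1r1b passed in that fit. The trend is taken against the mean of each age, so it leaves the difference of 0.22 as it was, with the high value of P70 WT replicate 5 in it. Whether length and base composition account for the values of Ppp1r1b and Pde10a in these mice was not tested.

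**Figure D4:**
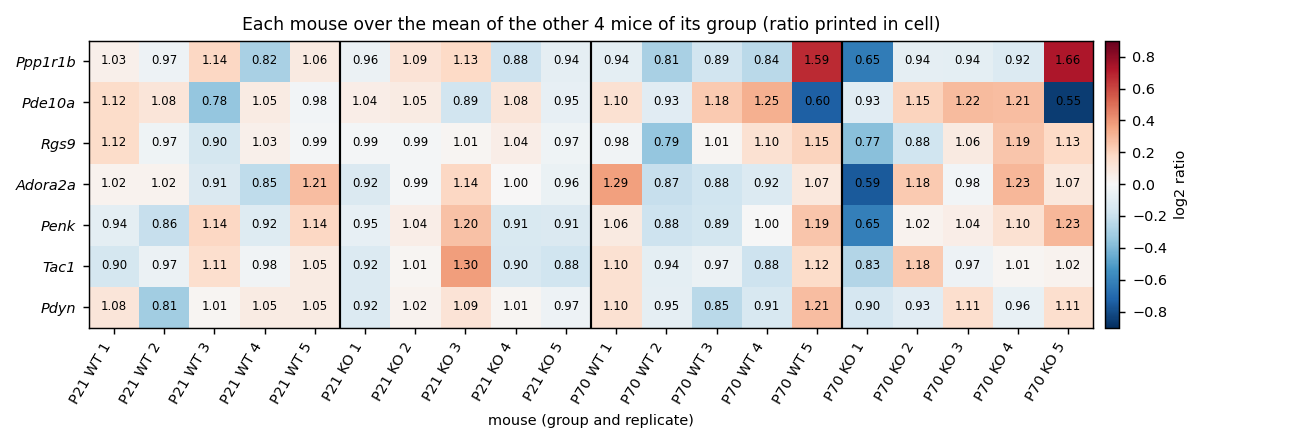
Ratio of each mouse to the mean of the other 4 mice of its group, printed in each cell and coloured on a log2 scale, for the 7 genes (rows) and 20 mice (columns). P70 WT 5 and P70 KO 5 are high for Ppp1r1b and low for Pde10a, and P70 KO 1 is below the others of its group for all 7 genes.

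P70 KO replicate 1 was another mouse far from its group mates. All 7 genes were below the mean of its 4 group mates, at 0.592 (Adora2a), 0.645 (Ppp1r1b), 0.654 (Penk), 0.77 (Rgs9), 0.833 (Tac1), 0.902 (Pdyn) and 0.931 times (Pde10a). P21 KO replicate 5 and P70 WT replicate 2 were below their group mates for all 7 as well, at 0.883 to 0.975 and 0.785 to 0.947 times. In P70 KO replicate 1, Drd2 was the lowest of the 10 P70 mice, at 467, while Drd1, at 626, was not. Its mean log2 deviation from the P70 mice was -0.32 over the 7 genes, -0.19 over the 20 shared genes, -0.175 over the 5 indirect pathway genes and 0.01 over the 6 direct pathway genes. The same measure was -0.595 for dopamine neuron genes, -0.79 for hindbrain genes, -0.24 for oligodendrocyte genes and -0.20 for cerebellar genes. It was 0.09 for cortical, 0.03 for thalamic, 0.198 for choroid plexus and 0.195 for hypothalamic genes. Hindbrain genes were lower still in P70 KO replicate 2 (-1.58) and P70 WT replicate 1 (-0.814). Indirect pathway genes were lower still in the P70 replicate 5 mice, at -0.282 (KO) and -0.23 (WT). The deviation of P70 KO replicate 1 from the other P70 mice had a rank correlation of 0.287 with transcript length and -0.415 with GC content. The value for GC content was the lowest of the 10 P70 mice. The part of the marker lists and of these trends in the low values was not tested.

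Leaving out this mouse as well as the P70 replicate 5 mice left 17 mice and 3 of the 21 pairs past the threshold: Ppp1r1b with Penk (r = 0.743, adjusted p = 0.0372, permutation test), Penk with Tac1 (r = 0.705, adjusted p = 0.0372) and Rgs9 with Pde10a (r = 0.705, adjusted p = 0.0118). Adora2a with Penk then had r of 0.537 (adjusted p = 0.105, permutation test).

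**Figure D5:**
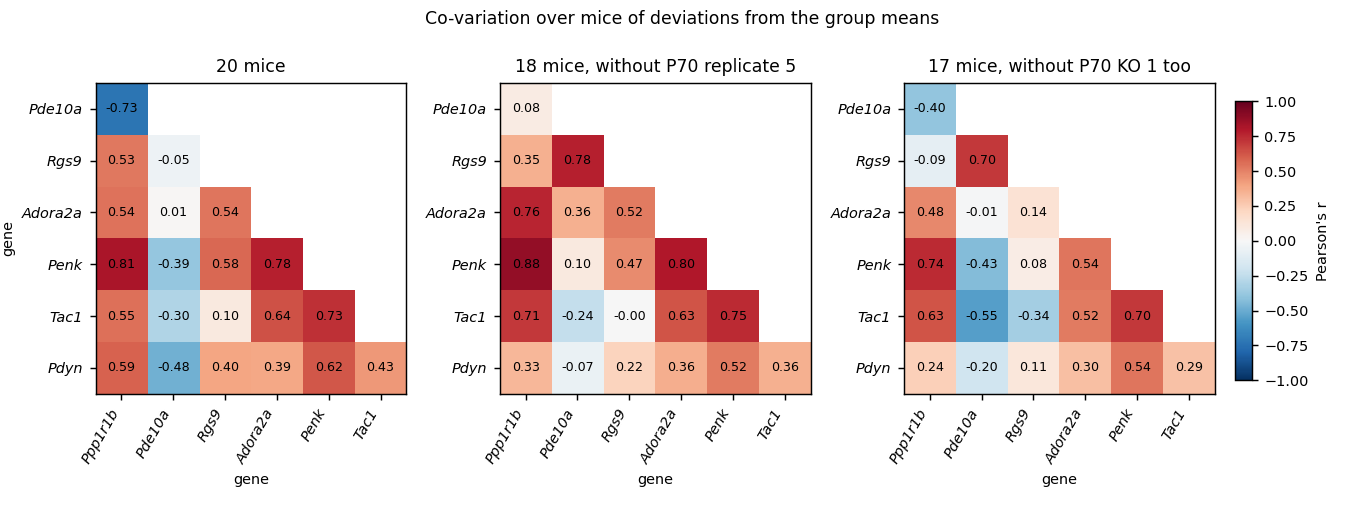
Pearson's r for the 21 pairs of genes, over 20 mice, over 18 mice without the P70 replicate 5 mice, and over 17 mice without P70 KO replicate 1 too. Ppp1r1b and Penk stay between 0.743 and 0.875, and Pde10a with Rgs9 goes from -0.0471 to 0.78 and 0.705.

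Each gene was also set against the mean standardized deviation of the other 6, among 12792 genes with a mean of at least 100. Penk was the gene nearest to the other 6 of all 12792 genes (r = 0.894 over 20 mice), Adora2a ranked 14 (0.807) and Ppp1r1b 163 (0.612). Tac1 ranked 640 (0.568), Pdyn 1205 (0.508), Rgs9 1530 (0.551) and Pde10a 9099 (-0.41). Without the P70 replicate 5 mice Penk ranked 4 (0.87), Adora2a 5 (0.846) and Ppp1r1b 21 (0.749). Tac1 then ranked 488 (0.506), Rgs9 1172 (0.543), Pdyn 1813 (0.387) and Pde10a 4420 (0.219). Within the 10 P21 mice Penk (1016, r = 0.545), Adora2a (1360, 0.595) and Ppp1r1b (2514, 0.391) ranked far lower. Tac1 ranked 2304 there (0.399), Pdyn 2392 (0.483), Rgs9 6379 (0.0503) and Pde10a 9245 (-0.377). These are descriptions of how mice deviated together, and the mice share the library trends given above. Outside the 7 genes, those that followed their mean deviation most closely over 20 mice, of 12791, included Erg28 (r = 0.888), Drd2 (0.845), Lrrc10b (0.845), Cox7c (0.84), Ccdc166 (0.825), Srebf1 (0.824), Gng7 (0.808), Tmem107 (0.806) and Rxrg (0.806). The 3 that ran opposite most were Ttc13 (-0.856), Dop1a (-0.817) and Chka (-0.807).

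Without the P70 replicate 5 mice, a ranking added after the values were seen, the 10 closest of the 12791 genes included Drd2 (r = 0.902 over 18 mice), Erg28 (0.878), Asic4 (0.858), Adcy5 (0.855), Gpr6 (0.837), Fam171a1 (0.825), Lrrc10b (0.819), Pde1b (0.816) and Ccdc166 (0.811). Of those named, Drd2, Adcy5, Gpr6 and Pde1b were on the lists of spiny neuron genes. Adcy5, the striatal adenylyl cyclase, had r of 0.694, Drd2 0.716 and Gpr6 0.487 once P70 KO replicate 1 was left out too. Other genes of the same lists were far from that pattern over the 18 mice, such as Grik3 (-0.37), Eya1 (-0.248) and Gprin3 (-0.186).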

How the data were processed

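RNA-seq of whole brain was analysed in 20 male mice. The authors sequenced poly-A RNA (TruSeq v2), quantified transcripts with Salmon 1.1.0 on GRCm38 with GC bias correction, summed them per gene with tximport and normalized them with DESeq2, version 1.26.0 in R 3.6.2 by the submitters' processing notes (the study's methods name other versions of both). The signal table that the authors deposited holds the resulting normalized counts of 19463 genes, and 19447 identifiers matched a symbol and a length in GENCODE M21. Whole reads could not be recovered from them, so limma was used where a count test would otherwise apply, and depth is unknown.

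Here, a pseudocount of 1 was added, log2 was taken, and genes averaging 10 or more over the mice of a comparison were fitted with limma 3.58.1 (R 4.3.3, lmFit and trended eBayes). P-values were adjusted after Benjamini and Hochberg over all those genes, with calls at 0.05. Fold changes are on the log2(value + 1) scale. The age by genotype interaction used 4 group means over 20 mice. Correlations and figures used Python 3.11.15, numpy 2.4.6, scipy 1.17.1 and matplotlib 3.10.9. Groups came from the sample labels, and nothing in them says more of the replicates than their number, while the study's methods give 5 mice per group. P-values measure the spread between these mice.

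Named genes were the 7, Drd1, Drd2, Katnal2, for each list the 2 with the smallest p per comparison, and the 10 most and 3 least alike genes, of which some are given; genes that the rule names and the text does not are not reported here. The 7 genes and the lists were chosen with earlier results of these data known. Alternatives were other normalization, filters, pseudocounts, thresholds, single fits, the replicate block and mice left out. The length and GC correction (natural splines, each mouse against the mean of its age) and leaving out the P70 replicate 5 mice or P70 KO replicate 1 from single results were added after seeing the data.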

Additional observations from a re-analysis of the deposited data

Results flagged for a closer look

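Each of the 7 genes, Drd1 and Drd2 was searched in each of the 4 groups for a mouse whose gap to the nearest other mouse exceeded 0.71 of the range of its 5 mice (Dixon's 95% value). Of 36 group and gene combinations 2 had one, beside about 1 in 20 for this threshold. The combinations share mice, so they are not independent, and whether the 2 arose by chance was not tested. For Ppp1r1b, P70 WT replicate 5 (9457 against at most 6314 in the other 4) had a gap of 0.82 of the range. For Pdyn, P21 WT replicate 2 (517 against at least 625) had a gap of 0.761 of the range. No interaction of age and genotype passed for any of the 7 genes.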

How the results depend on the processing

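Of the 441 values of single genes under other settings, 416 kept their direction and their side of the threshold, 9 passed it in addition, 1 lost it and 15 changed sign. Of 420 values with 1 mouse left out, 360 kept both, 2 passed in addition, 3 lost the call and 55 changed sign, each of them a difference that had not passed. In every setting tried, 0 of the 7 genes passed between KO and WT mice at either age. From P21 to P70 in WT mice the count of 0 became 2 at an unadjusted p (Penk and Rgs9), 1 without both replicate 5 mice of each age, 2 with the length and GC correction, also with the replicate block (2), and 0 to 1 with 1 mouse left out. Calls over all genes, 1643 before, were 4315, 2646, 3453 and 2916 in these settings, in that order, and 912 to 3000 with 1 mouse left out. In KO mice the count of 1 became 0 with the replicate block (Pdyn, adjusted p = 0.0553, limma), 2 with the length and GC correction and the replicate block (Pdyn, 0.0078, and Penk, 0.0489), and 0 to 2 with 1 mouse left out, where calls over all genes, 1467 before, were 913, 2784 and 896 to 3759. The correction is centred on each age, so it changes the SE of an age difference and not the difference. Over all alternatives the adjusted p of Pdyn ran from 0.0021 to 0.0627. The interaction went from 0 to 1 at an unadjusted p. Of the 21 pairs, 7 passed, and 3 did without P70 KO replicate 1 and both P70 replicate 5 mice. With mean transcript lengths the levels per length moved to 131.5 (Pde10a), 75.7 (Tac1), 62.0 (Adora2a) and 33.6 (Pdyn). The labels do not say whether replicate numbers pair the mice, and a shared litter or batch was not tested. Over the 20 same-numbered pairs the correlation of deviations ran from -0.119 to 0.705, and the highest was the pair of P70 replicate 5 mice. Between KO and WT mice of P70, replicates 2, 3 and 5 were each the best match of their own number. At P21 this held for replicates 3 and 4, and not for the remaining replicates of either age. The replicate block changed no other call.

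Sign changes under other settings were small. KO against WT, Penk went to -0.0040 at P21 and -0.0069 at P70 with the length and GC correction, alone or with the replicate block, and to -0.0041 at P70 without the replicate 5 mice. With age, Adora2a went to 0.032 in WT without both replicate 5 mice, and Pdyn to -0.0077 in WT without the P70 one. In KO mice, without both replicate 5 mice or without the P70 one, Ppp1r1b went to -0.057 and -0.041, Tac1 to -0.035 and -0.0013, and Pde10a to 0.078 and 0.092. The interaction of Penk went to 0.011 with quantile normalization. With 1 mouse left out, the sign of these changed within the ranges given. KO against WT at P21, they were -0.037 to 0.054 (Penk), -0.10 to 0.0028 (Pde10a), -0.039 to 0.024 (Rgs9) and -0.0030 to 0.092 (Ppp1r1b). At P70 they were -0.055 to 0.13 (Penk), -0.21 to 0.074 (Ppp1r1b), -0.11 to 0.032 (Rgs9) and -0.029 to 0.071 (Tac1). With age in WT they were -0.077 to 0.053 (Adora2a) and -0.014 to 0.096 (Pdyn), and in KO mice -0.042 to 0.083 (Tac1), -0.089 to 0.13 (Adora2a), -0.041 to 0.23 (Ppp1r1b) and -0.14 to 0.092 (Pde10a). For the interaction they were -0.069 to 0.12 (Penk), -0.086 to 0.13 (Adora2a), -0.26 to 0.020 (Ppp1r1b) and -0.10 to 0.041 (Rgs9). Pde10a, KO against WT at P70, kept its sign at -0.36 to -0.046, as did Ppp1r1b with age in WT at 0.087 to 0.27. The cause of these changes was not tested. Depth is unknown, and 5 mice per group limit the precision.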
